A study of Rattus norvegicus with 16 samples.

Results

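The genes described here, 34 in all, act in the uptake and oxidation of fatty acids in the rat heart. They were chosen by symbol and cover 4 steps: uptake and activation (5 genes), the carnitine shuttle (5), beta-oxidation (18) and regulators (6). Of these, 33 were matched to a row of the 32754 gene entries, and all 33 were among the 13458 genes with enough counts to be tested. Acaa1a, a peroxisomal thiolase, was not matched and is not analysed here. The genes were measured by RNA sequencing of mRNA from the right ventricle of Sprague Dawley females aged 20 to 21 weeks. ERalpha -/- rats, which carry a mutation of estrogen receptor alpha and are called KO here, were compared with wild type (WT) rats. Rats of both genotypes had pulmonary artery banding for 10 weeks (PAB), a constriction that raises the pressure against which the right heart pumps, or sham surgery (SHAM). The groups KO PAB, WT PAB, KO SHAM and WT SHAM hold 4 libraries each. The labels do not say that replicates are separate animals, so p-values measure the spread between these libraries.

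The heart takes most of its energy from long-chain fatty acids. Fatty acids are freed from lipoproteins by Lpl, enter the cell with the help of Cd36 and Slc27a1, are carried by the binding protein Fabp3 and are bound to coenzyme A by Acsl1. The acyl group is passed to carnitine by Cpt1, carried across the inner mitochondrial membrane by Slc25a20 and passed back to coenzyme A by Cpt2. In the matrix each round of beta-oxidation removes acetyl-CoA by dehydrogenation, hydration, a second dehydrogenation and thiolysis, and the electrons reach the respiratory chain through the electron transfer flavoprotein (Etfa and Etfb) and its dehydrogenase Etfdh. The nuclear receptors encoded by Ppara and Ppard switch on many of these genes. Lower use of fatty acids is a known feature of hearts under sustained pressure load.

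Libraries held 22168110 to 34718633 counts, and the lowest count of any of the 33 genes in any library was 197, so counting error is small beside the spread between libraries. Esr1, which encodes ERalpha, had 7 to 13 counts in KO PAB and 70 to 131 in WT PAB, and 10 to 21 in KO SHAM and 91 to 139 in WT SHAM. Of the 12 cardiomyocyte markers, 11 had counts in all 16 libraries, at levels that differed widely between markers. Tcap, a Z-disc gene, was at 0 in 14 libraries, for a reason that was not tested. Levels are given as CPM, counts scaled to a common library total with TMM factors, a scaling that assumes most genes do not differ between libraries. Effects are log2 fold changes from edgeR's quasi-likelihood test. Their standard error (SE) was derived as the size of the effect divided by the square root of the F statistic of that test. A gene was called at a Benjamini-Hochberg adjusted p under 0.05 over all genes tested.

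Of the 8 SHAM libraries, 3 stood apart. Adipoq, which encodes adiponectin and is made by fat cells, reached 56.5 CPM of the raw total in WT SHAM 2, 31.0 in WT SHAM 3 and 13.2 in KO SHAM 4. It was at most 0.0451 CPM in the other 5 SHAM libraries. Across the 11 listed adipocyte markers the summed level was 308 to 534 CPM in these 3 libraries and 278.5 to 331 CPM in the other 5, most of it from Fabp4 in both. In those 5 libraries Plin1, Retn, Slc7a10 and Ucp1 were at 0. Mesothelial markers summed to 59.2 to 134 CPM in the 3 and 6.82 to 28.6 CPM in the other 5. Summed markers of further cell types also separated the libraries without overlap. Fibroblast markers were at 1629 to 2968 CPM in the 3 and 680 to 903 CPM in the other 5, and smooth muscle and pericyte markers at 2230 to 4819 CPM and 1413 to 1768 CPM. Most of the latter sum in the other 5 came from Des, which averaged 1374 CPM there and 1169 CPM in the 3. The other 6 of these 7 markers were higher in the 3, such as Myh11 (732 against 68.0 CPM) and Acta2 (656 against 41.8 CPM). Macrophage markers were at 153 to 228 CPM in the 3 and 45.9 to 81.1 CPM in the other 5, and atrial cardiomyocyte markers at 18.4 to 36.6 CPM and 9.62 to 16.2 CPM. Skeletal muscle markers were low in all, at 1.34 to 2.13 CPM in the 3 and 0.381 to 0.749 CPM in the other 5. Endothelial markers overlapped, at 365 to 506 CPM in the 3 and 361 to 439 CPM in the other 5. The 33 fatty acid genes moved with this split: 32 of 33 were lower in the 3 libraries, with a median log2 difference of −0.53, against 0.01 over all genes tested. Only Cpt1a, the liver-type carnitine palmitoyltransferase, did not follow, at 59.4 CPM on average in the 3 and 59.3 CPM in the other 5. The 11 tested cardiomyocyte markers were also all lower in the 3 libraries, by a median of −0.58. In bulk tissue fewer cardiomyocytes and less RNA per cardiomyocyte cannot be told apart, and the part of other cell types in the results was not tested. Banding counts and medians of the 33 genes are therefore given with all 16 libraries and with the 13 that remain without these 3. Effects of single genes are given for either or both sets, and are from all 16 libraries where no set is named. Lpl and Cd36 are also made by fat cells, and both were lower in the 3 libraries. Among banded libraries KO PAB 3 had Adipoq at 5.51 CPM and the other 7 had at most 0.374 CPM. KO PAB 3 was also the highest of the 8 in fibroblast markers (1375 CPM, against at most 1020 in the other 7), macrophage markers (183 CPM, against at most 103) and atrial markers (36.3 CPM, against at most 28.7). The median deviation of the 33 genes in it was −0.32 on the log2 scale, the lowest of the banded libraries after KO PAB 4 at −0.35. The part of these markers in the banding results was not tested.

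**Figure D1:**
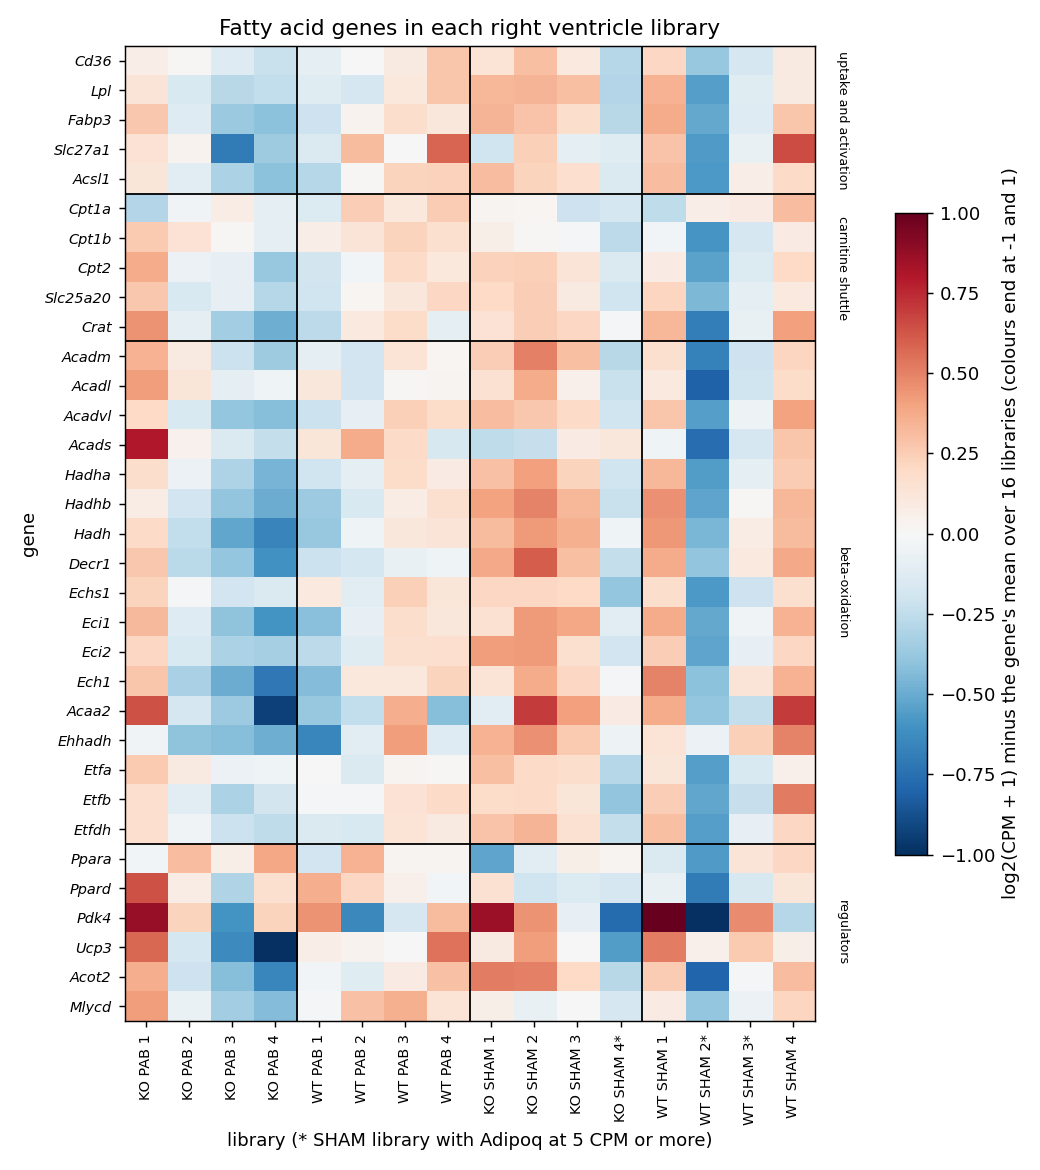
Level of each of the 33 fatty acid genes (rows, grouped by step) in each of the 16 libraries (columns), as log2(CPM + 1) minus the mean of the gene over all libraries; red is higher and blue lower. WT SHAM 2 is blue over nearly all rows, KO SHAM 4 is blue over most, and KO PAB 3 and KO PAB 4 are the lowest banded libraries.

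The genes varied together from library to library. The median deviation of the 33 genes from their own means was 0.26, −0.10, −0.32 and −0.35 in KO PAB and −0.14, −0.04, 0.13 and 0.13 in WT PAB, on the log2 scale. In SHAM it was 0.21, 0.30, 0.17 and −0.20 in KO and 0.25, −0.55, −0.08 and 0.21 in WT. The 5 SHAM libraries low in Adipoq lay within 0.17 to 0.30, while both banded groups spread from below 0 to above 0, and KO PAB 1 was as high as a SHAM library. Their summed share of a library was 1.47% to 2.30% of its counts. The spread between replicates was smallest for Cpt1a (SD 0.18 on the log2 scale) and Cpt1b (0.18), and widest for Pdk4 (0.92).

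With all 16 libraries, no fatty acid gene was called for banding averaged over the genotypes by edgeR, against 5.09% of all genes tested. The median log2 fold change of the 33 genes was −0.12, against −0.02 over all genes, and 24 of 33 were negative. An unadjusted p under 0.05 was found for 6 genes, of which 4 (Ehhadh, Decr1, Hadh and Hadhb) were lower in PAB and Cpt1b and Ppard were higher. That is 18.2% of the 33 genes, below the 22.7% of all genes with such a p. DESeq2 called 1 of the 33, Ehhadh, as lower, against 9.94% of all genes, and limma-voom none, against 4.70%. Without the 3 SHAM libraries, 28 of 33 were negative with a median of −0.29, against 0.01 over all genes, and 18 had an unadjusted p under 0.05, all lower in PAB, which is 54.5% of the 33 genes where 24.8% of all genes had such a p in either direction. As 32 of the 33 genes were lower in the 3 libraries left out, a shift of the effects to lower values follows from their removal. The beta-oxidation genes Hadhb, Decr1 and Hadh were called in this fit, all lower. That is 3 of 33 genes, where 7.00% of all genes were called in either direction and 3.17% as lower, so 3 genes are few to read against these shares. Leaving out KO PAB 3 as well, the only banded library past the same Adipoq level, kept Hadhb and Decr1 (adjusted p = 0.0336 and 0.0397) and lost the call of Hadh, whose effect was −0.49 against −0.52 (adjusted p = 0.0598), with 3.91% of all genes called. These calls rest on few libraries: leaving out 1 more of the 13 in turn gave 0 to 18 called genes, Hadhb in 11 of the 13 fits, Decr1 in 8 and Hadh in 3. The share of all genes called in these fits ran over 0% to 10.1%. None of the 33 was called without WT SHAM 1, where no gene of all was called either, or without KO SHAM 2, where 1.28% of all genes were. Without KO PAB 1, 18 of the 33 were called, all lower, which is 54.5% against 10.1% of all genes in either direction and 5.11% as lower.

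**Figure D2:**
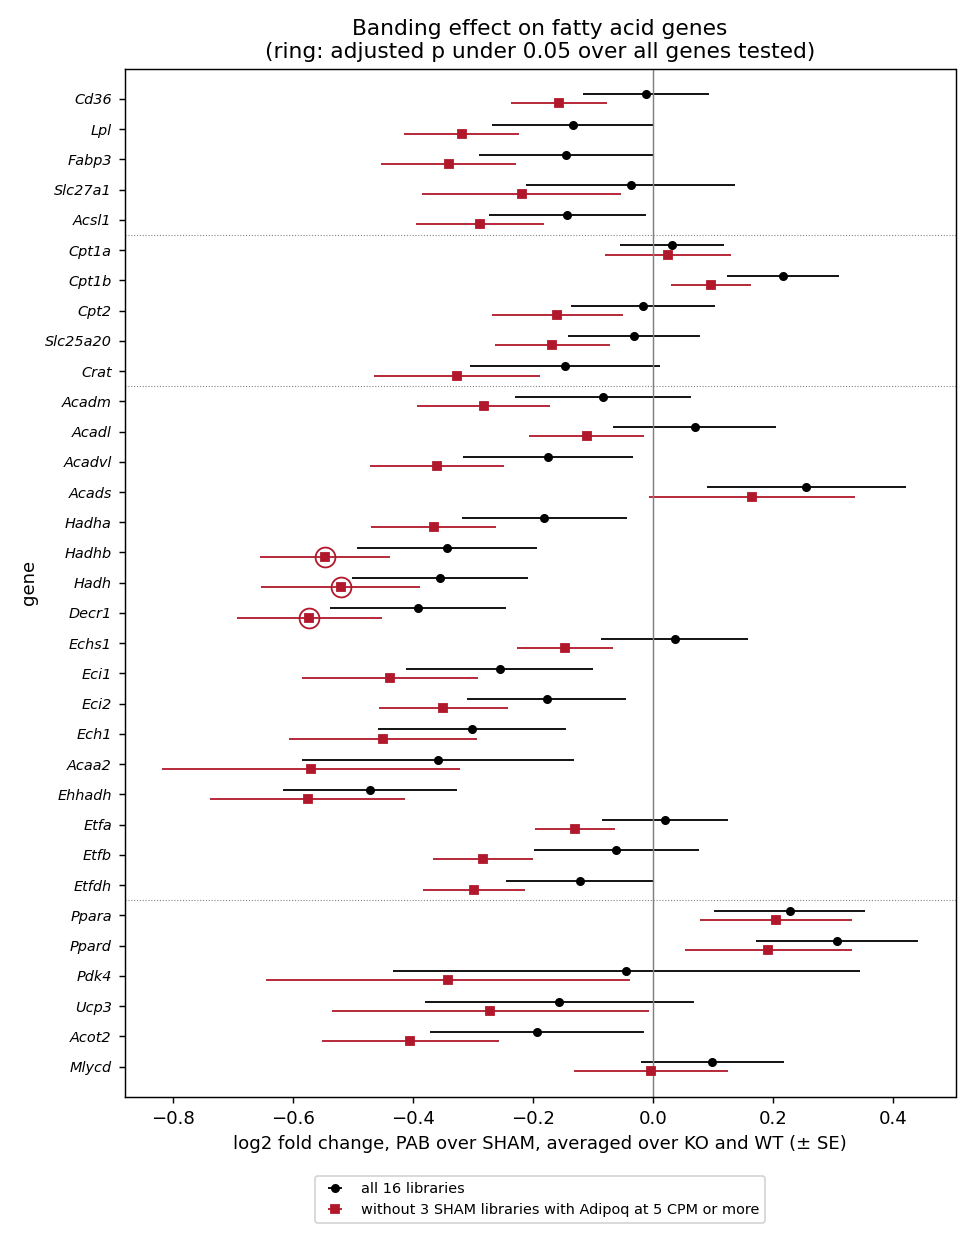
Log2 fold change of PAB over SHAM, averaged over KO and WT, for each fatty acid gene (points) with its SE (bars), with all 16 libraries (black circles) and without the 3 SHAM libraries high in Adipoq (red squares); a ring marks an adjusted p under 0.05. Nearly every red point lies left of its black point, a shift that follows from leaving out SHAM libraries in which 32 of the 33 genes were lower. The 3 rings are on Hadhb, Hadh and Decr1.

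Uptake and activation genes were negative in all 5 cases with all 16 libraries (median −0.13) and without the 3 SHAM libraries (median −0.29), and none was called. Acsl1, the main long-chain acyl-CoA synthetase of the heart, stood at 1028, 874, 756 and 708 CPM in KO PAB and 774, 951, 1098 and 1109 CPM in WT PAB. Its SHAM values were 1165, 1098, 1058 and 852 CPM in KO SHAM and 1165, 635, 986 and 1076 CPM in WT SHAM. The groups overlapped, and the 3 lowest SHAM values were those of the libraries high in Adipoq. The averaged banding effect on Acsl1 was −0.14 (SE 0.13, adjusted p = 0.55) with all libraries and −0.29 (SE 0.11, adjusted p = 0.115) without the 3. Lpl, the lipoprotein lipase that frees fatty acids at the capillary wall, had 2832, 2330, 2139 and 2189 CPM in KO PAB and 2376, 2307, 2782 and 3138 CPM in WT PAB. Lpl in the SHAM libraries was at 3268, 3274, 3198 and 2116 CPM in KO SHAM and 3303, 1763, 2379 and 2759 CPM in WT SHAM. Its lowest SHAM values were those of the 3 libraries high in Adipoq, and every KO PAB library lay below the other 3 KO SHAM libraries. The effect on Lpl was −0.13 (SE 0.14, adjusted p = 0.597) with all libraries and −0.32 (SE 0.096, adjusted p = 0.0631) without the 3. Slc27a1, a fatty acid transport protein, had 57.7, 53.5, 31.7 and 40.6 CPM in KO PAB and 47.1, 64.9, 51.8 and 78.4 CPM in WT PAB. For Slc27a1 the SHAM libraries gave 45.1, 61.5, 48.7 and 47.8 CPM in KO SHAM and 63.6, 34.8, 49.5 and 82.3 CPM in WT SHAM. All groups overlapped, and the averaged effect on Slc27a1 was −0.04 (SE 0.17, adjusted p = 0.926). Fabp3, the heart fatty acid binding protein, averaged 2657 ± 609 CPM in KO PAB and 2997 ± 340.1 CPM in WT PAB, against 3237 ± 578 CPM in KO SHAM and 3006 ± 797 CPM in WT SHAM (SD, n = 4 each). Cd36, the main fatty acid translocase, averaged 1253 ± 111 CPM in KO PAB and 1377 ± 157 CPM in WT PAB, against 1382 ± 226 CPM in KO SHAM and 1268 ± 228 CPM in WT SHAM. Neither Fabp3 nor Cd36 was called, with or without the 3 SHAM libraries.

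Carnitine shuttle genes had a median banding effect of −0.02 with all 16 libraries and −0.16 without the 3. Cpt1b, the muscle form of the enzyme that commits fatty acids to the mitochondrion, had 714, 658, 599 and 557 CPM in KO PAB and 621, 652, 694 and 665 CPM in WT PAB. The SHAM levels of Cpt1b were 619, 599, 589 and 497 CPM in KO SHAM and 585, 395, 529 and 630 CPM in WT SHAM. Cpt1b was one of the few genes with a positive averaged effect, 0.22 (SE 0.094, adjusted p = 0.183), which was 0.10 (SE 0.067, adjusted p = 0.398) without the 3 SHAM libraries, so it was not called in either. Cpt1a, the liver form, had 48.5, 58.1, 62.7 and 56.01 CPM in KO PAB and 54.1, 70.7, 64.3 and 71.4 CPM in WT PAB. Cpt1a in SHAM was at 60.7, 60.4, 51.5 and 52.8 CPM in KO SHAM and 49.7, 62.3, 63.00 and 74.2 CPM in WT SHAM. These values overlapped fully between banded and sham libraries, with an averaged effect of 0.03 (SE 0.087, adjusted p = 0.866). Crat, which makes acetylcarnitine, had the most negative effect of this step, −0.15 (SE 0.16, adjusted p = 0.623) with all libraries and −0.33 (SE 0.14, adjusted p = 0.166) without the 3. Slc25a20, the carrier across the inner membrane, averaged 244 ± 42.2 CPM in KO PAB and 260.5 ± 30.7 CPM in WT PAB, against 269.7 ± 35.4 CPM in KO SHAM and 246 ± 47.5 CPM in WT SHAM (SD, n = 4 each). Cpt2, on the matrix side, averaged 179 ± 40.02 CPM in KO PAB and 184 ± 21.00 CPM in WT PAB, against 197 ± 23.3 CPM in KO SHAM and 172 ± 36.3 CPM in WT SHAM.

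Beta-oxidation held all 3 genes called without the 3 SHAM libraries. In that fit 16 of its 17 measured genes were negative, with a median of −0.36, and with all 16 libraries 13 of 17 were negative, with a median of −0.18. Hadhb encodes the subunit of the mitochondrial trifunctional protein with thiolase activity, and had 1391, 1158, 1008 and 938 CPM in KO PAB and 1029, 1189, 1394 and 1481 CPM in WT PAB. Hadhb in the SHAM libraries was at 1752, 1871, 1669 and 1132 CPM in KO SHAM and 1818, 918, 1332 and 1664 CPM in WT SHAM. Apart from WT SHAM 2, WT SHAM 3 and KO SHAM 4, all SHAM values exceeded all PAB values. The averaged effect on Hadhb was −0.34 (SE 0.15, adjusted p = 0.188) with all 16 libraries and −0.55 (SE 0.11, adjusted p = 0.0207) without the 3. Decr1, the reductase needed to oxidise unsaturated fatty acids, had 199.9, 137, 126 and 109 CPM in KO PAB and 143, 146, 157 and 160.5 CPM in WT PAB. The SHAM values of Decr1 were 215, 252, 205 and 141 CPM in KO SHAM and 215, 126, 178 and 216 CPM in WT SHAM. Again the 5 SHAM libraries low in Adipoq lay above all 8 banded libraries. For Decr1 the averaged effect was −0.39 (SE 0.15, adjusted p = 0.129) with all libraries and −0.57 (SE 0.12, adjusted p = 0.0244) without the 3. Hadh, the short-chain hydroxyacyl-CoA dehydrogenase of the second dehydrogenation, had 611, 451, 373 and 338 CPM in KO PAB and 412, 519.5, 581 and 587 CPM in WT PAB. Levels of Hadh in SHAM were 669, 719, 684 and 520 CPM in KO SHAM and 725, 390, 563 and 668 CPM in WT SHAM. Here too the 5 SHAM libraries lay above all 8 banded ones, although KO PAB 1 came close. The effect on Hadh was −0.35 (SE 0.15, adjusted p = 0.165) with all libraries and −0.52 (SE 0.13, adjusted p = 0.0381) without the 3. Hadhb, Decr1 and Hadh are described in full because they were called without the 3 libraries, which is a choice made after their values were seen.

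Ehhadh, the peroxisomal bifunctional enzyme, had the smallest unadjusted p of the 33 genes with all 16 libraries. Its levels were 12.5, 9.45, 9.31 and 8.86 CPM in KO PAB and 7.80, 11.8, 17.5 and 11.7 CPM in WT PAB. Ehhadh in SHAM was at 16.6, 17.96, 15.6 and 12.4 CPM in KO SHAM and 14.2, 12.3, 15.3 and 18.5 CPM in WT SHAM. All 4 KO SHAM libraries but KO SHAM 4 exceeded every KO PAB library, while WT PAB 3 lay among the WT SHAM values. The averaged effect was −0.47 (SE 0.14, adjusted p = 0.0704) with all libraries and −0.57 (SE 0.16, adjusted p = 0.0524) without the 3, so Ehhadh missed the threshold in both. Without WT PAB 3 alone it passed, at −0.58 (adjusted p = 0.0225). Etfa, a subunit of the electron transfer flavoprotein, had 545, 483, 436 and 440.4 CPM in KO PAB and 455, 410.5, 464 and 459 CPM in WT PAB. For Etfa the SHAM levels were 559.7, 519.7, 515 and 372 CPM in KO SHAM and 494, 311, 408 and 471 CPM in WT SHAM. These overlapped, and the effect was 0.02 (SE 0.11, adjusted p = 0.93) with all libraries and −0.13 (SE 0.067, adjusted p = 0.251) without the 3.

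Hadha, which encodes the other subunit of the trifunctional protein, averaged 770.1 ± 152 CPM in KO PAB and 852 ± 101 CPM in WT PAB, against 975 ± 166 CPM in KO SHAM and 864 ± 224 CPM in WT SHAM (SD, n = 4 each). Its averaged effect was −0.18 (SE 0.14, adjusted p = 0.457) with all libraries and −0.37 (SE 0.10, adjusted p = 0.0536) without the 3, just outside the threshold. Etfdh and Etfb were also just outside it without the 3 libraries, at −0.30 (adjusted p = 0.0526) and −0.28 (adjusted p = 0.0586). The acyl-CoA dehydrogenases, which carry out the first step on chains of different length, were not called: Acadvl (very long chains) was at −0.36, Acadm (medium) at −0.28 and Acadl (long) at −0.11 without the 3 libraries. Acads (short chains) differed in sign from most of this step, at 0.26 with all libraries and 0.17 without the 3. The isomerases Eci1, Eci2 and Ech1 were at −0.44, −0.35 and −0.45, the hydratase Echs1 at −0.15 and the thiolase Acaa2 at −0.57, all without the 3 libraries and none called. Acadl and Echs1 differed in sign with all 16 libraries, at 0.07 (SE 0.14) and 0.04 (SE 0.12). Acadvl, Acadm, Eci1, Eci2, Ech1 and Acaa2 were negative there too. Acaa2 varied most between replicates of this step (SD 0.49), with 280.2 CPM in KO PAB 4 and 835 CPM in KO PAB 1.

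Hadhb and Hadha are transcribed away from each other, and their promoters, shown here because they serve both subunits of 1 enzyme complex with levels that were lower in PAB in both genotypes without the 3 SHAM libraries, share 200 bases. The windows run from 250 bases before to 50 after the start of each gene, 5′ to 3′ on the strand of that gene, from RefSeq on GRCr8, which is not the build the counts were made on (Rnor_6.0). Hadhb is chr6:31907451-31907750 on the minus strand and Hadha is chr6:31907551-31907850 on the plus strand, with the starts 301 bases apart. Capitals mark the shared stretch, chr6:31907551-31907750, which each line shows as the reverse complement of the other.
Hadhb: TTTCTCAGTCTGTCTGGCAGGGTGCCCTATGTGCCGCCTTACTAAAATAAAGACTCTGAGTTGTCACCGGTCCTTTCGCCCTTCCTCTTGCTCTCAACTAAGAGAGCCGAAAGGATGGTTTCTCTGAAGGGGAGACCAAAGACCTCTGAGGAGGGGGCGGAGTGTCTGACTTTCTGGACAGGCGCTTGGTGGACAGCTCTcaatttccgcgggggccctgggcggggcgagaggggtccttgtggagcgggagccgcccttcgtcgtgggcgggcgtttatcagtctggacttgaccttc
Hadha: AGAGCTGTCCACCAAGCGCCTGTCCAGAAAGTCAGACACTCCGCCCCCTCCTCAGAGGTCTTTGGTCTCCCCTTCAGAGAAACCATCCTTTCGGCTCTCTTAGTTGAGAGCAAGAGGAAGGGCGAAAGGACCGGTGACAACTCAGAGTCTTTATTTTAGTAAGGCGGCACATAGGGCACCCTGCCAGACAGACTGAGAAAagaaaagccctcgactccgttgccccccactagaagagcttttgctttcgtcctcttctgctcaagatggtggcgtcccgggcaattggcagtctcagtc
The hexamer AGGTCA, the half-site that PPAR, retinoid X and estrogen receptors bind, was searched on both strands. It was found in the windows of 7 of the 26 genes with one (Slc27a1, Acadvl, Hadhb, Echs1, Eci1, Eci2 and Ucp3), and in 16.2% of all 33469 windows. In Hadhb it lies on the opposite strand, past the start and outside the shared stretch. A direct repeat of AGGTCA with 1 base between was in none of the 26 windows and in 0.0538% of all windows. A match is a description of the letters only.

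Regulators had no common direction. Ppard, a fatty acid sensing nuclear receptor, had 58.04, 39.01, 29.8 and 41.4 CPM in KO PAB and 47.8, 42.8, 38.2 and 36.2 CPM in WT PAB. Ppard in SHAM was at 41.02, 32.01, 33.4 and 32.7 CPM in KO SHAM and 35.1, 22.3, 32.9 and 40.1 CPM in WT SHAM. The groups overlapped, and the averaged effect of 0.31 (SE 0.13, adjusted p = 0.19) became 0.19 (SE 0.14, adjusted p = 0.418) without the 3 SHAM libraries. Ppara, another fatty acid sensing nuclear receptor, was at 0.23 (SE 0.13, adjusted p = 0.296) with all libraries and 0.20 (SE 0.13, adjusted p = 0.342) without the 3. Both receptors were thus positive where most enzyme genes were negative, with neither called. Acot2, a mitochondrial acyl-CoA thioesterase, had 141, 95.01, 81.7 and 69.5 CPM in KO PAB and 108, 101, 116 and 135 CPM in WT PAB. SHAM levels of Acot2 were 158, 156, 126 and 90.4 CPM in KO SHAM and 131, 63.2, 108 and 136 CPM in WT SHAM. Its effect was −0.19 (SE 0.18, adjusted p = 0.554) with all libraries and −0.40 (SE 0.15, adjusted p = 0.113) without the 3, and reads from its near-identical neighbour Acot1 may be split between them. Mlycd, which degrades the Cpt1 inhibitor malonyl-CoA, had 169, 121, 99.3 and 93.5 CPM in KO PAB and 125, 155, 162 and 139 CPM in WT PAB. Mlycd in the SHAM libraries was at 132, 120, 127 and 112 CPM in KO SHAM and 134, 96.5, 121 and 147 CPM in WT SHAM. The values overlapped throughout, with an effect of 0.10 (SE 0.12, adjusted p = 0.664). Pdk4, the kinase that holds back glucose oxidation, spanned 56.4 CPM in WT SHAM 2 to 634 CPM in WT SHAM 1, and its effect of −0.04 (SE 0.39, adjusted p = 0.959) has an SE several times its size. Ucp3, a mitochondrial carrier, was at −0.16 (SE 0.22, adjusted p = 0.722).

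**Figure D3:**
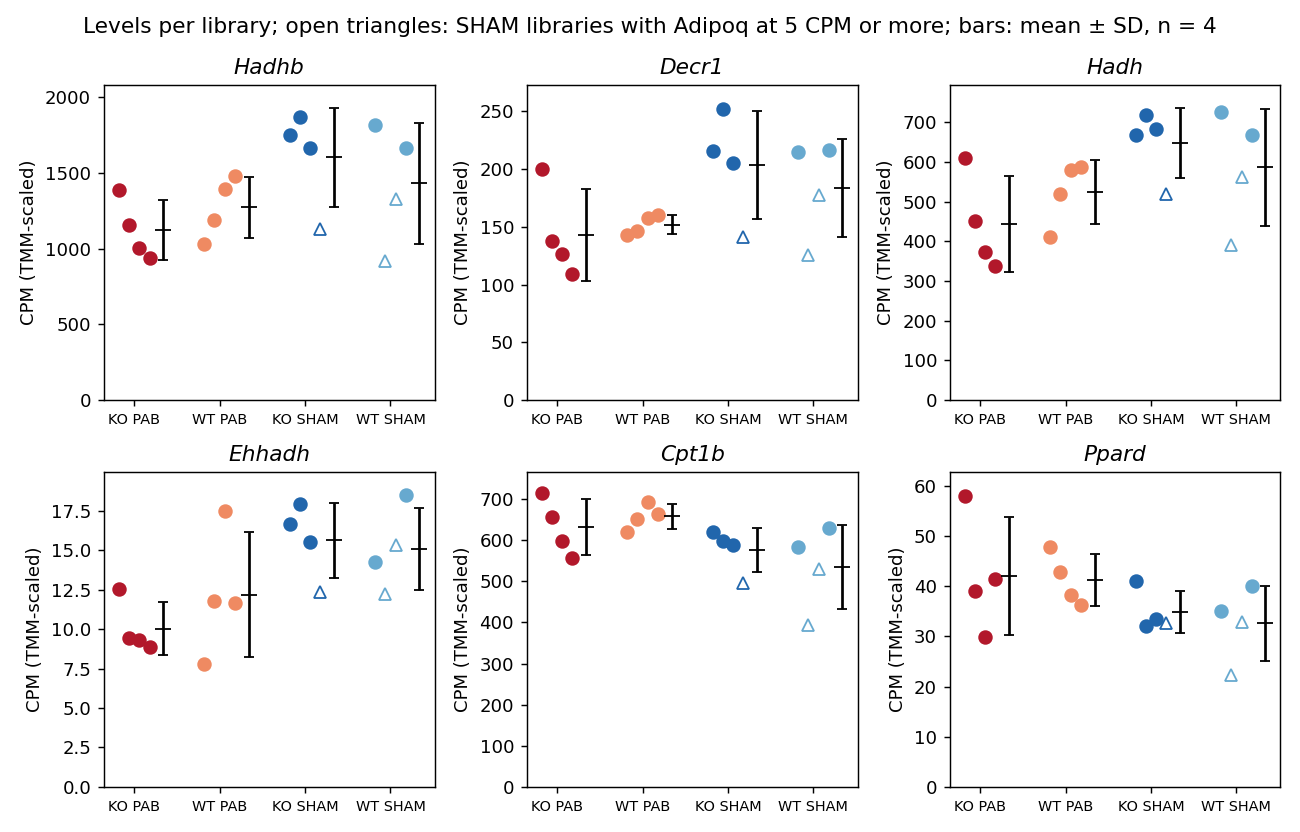
Level in CPM of 4 beta-oxidation genes (Hadhb, Decr1, Hadh, Ehhadh), Cpt1b and Ppard in each library (points), by group, with the mean and SD of each group (bars, n = 4); open triangles are the 3 SHAM libraries high in Adipoq. For Hadhb, Decr1 and Hadh the filled SHAM points lie above all banded points, whereas the highest points of Cpt1b and Ppard are banded libraries.

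The banding effect was then taken within each genotype. In KO, with all 16 libraries, none of the 33 genes was called, against 0.632% of all genes, and 4 had an unadjusted p under 0.05, all lower, which is 12.1% against 15.6% of all genes. DESeq2 and limma-voom called none of the 33 in KO, where they called 3.79% and 0.817% of all genes, or in WT, where they called 0.803% and 0%. The median was −0.23 with 27 of 33 negative, and beta-oxidation had the most negative step median, −0.34. Without KO SHAM 4 and the 2 WT SHAM libraries, Hadhb was called in KO at −0.65 (SE 0.14, adjusted p = 0.0418), which is 1 of 33 genes against 2.53% of all genes. Decr1 followed at −0.65 (SE 0.16, adjusted p = 0.0527), and the median was −0.33. Without KO PAB 3 too, Hadhb had −0.60 (SE 0.15, adjusted p = 0.077) in KO and was not called. Leaving out 1 more of the 13 libraries in turn gave 0 to 17 called genes in KO, none in 10 of the 13 fits and 17 without KO PAB 1, all lower, where 6.69% of all genes were called and 3.58% as lower. The share of all genes called in the 10 fits with none of the 33 was 0% to 1.59%.

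In WT, with all 16 libraries, the median of the 33 genes was 0.03, 19 were positive, 1 had an unadjusted p under 0.05 (3.03%, against 11.7% of all genes) and none was called, against 0.00743% of all genes. This direction turned with the libraries used: without WT SHAM 2 and WT SHAM 3, which leaves 2 WT SHAM libraries, 27 of 33 were negative with a median of −0.21. Scaled by library totals with no TMM factors, the WT median with all 16 libraries was −0.05. None was called without the 3 libraries (background 0% of all genes), and 3 had an unadjusted p under 0.05 (9.09%, against 7.46% of all genes). For Hadhb the WT effect was −0.17 (SE 0.21, adjusted p = 0.768) with all libraries and −0.45 (SE 0.16, adjusted p = 0.597) without the 3.

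With all 16 libraries, no gene of the 33 had all PAB libraries below all SHAM libraries of its genotype, in KO (4.32% of all genes did) or in WT (2.33%). Without the 3 SHAM libraries 8 of 33 did in KO, 24.2%, against 10.9% of all genes. They were Cd36, Lpl, Acsl1, Hadha, Hadhb, Hadh, Decr1 and Ehhadh. In WT 15 of 33 did, 45.5%, against 9.11% of all genes, with only 2 SHAM libraries to lie above. Hadha, Hadhb, Hadh and Decr1 did so in both genotypes. As 32 of the 33 genes were lower in the 3 libraries left out, higher counts follow from their removal. The 33 genes also varied together between libraries, so these counts are not of separate observations. No gene of the 33 had all PAB libraries above all SHAM libraries, in either genotype and with either set of libraries. Of all genes 5.855% did in KO and 2.601% in WT with all 16 libraries. Without the 3 SHAM libraries these shares were 11.16% in KO and 8.114% in WT.

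**Figure D4:**
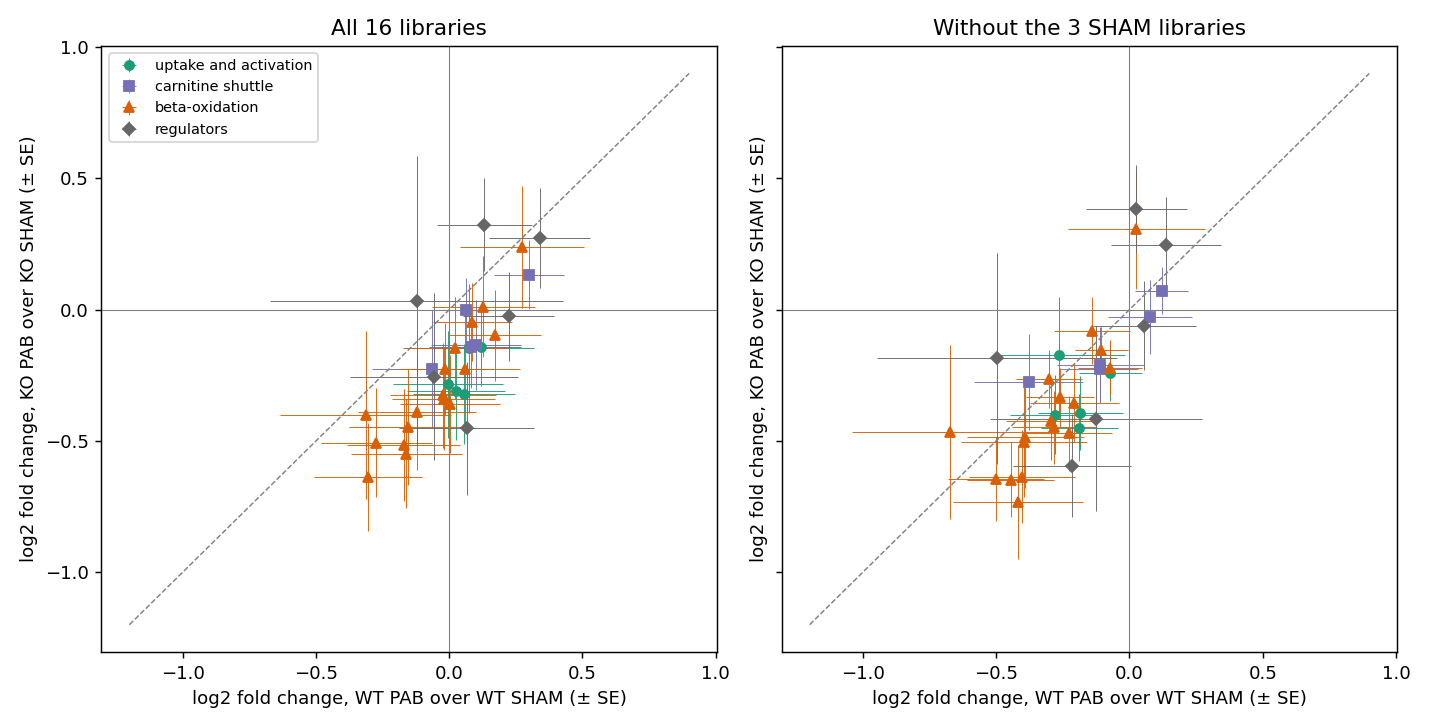
Log2 fold change of KO PAB over KO SHAM (vertical) against WT PAB over WT SHAM (horizontal) for each of the 33 genes, with SE bars, with all 16 libraries (left) and without the 3 SHAM libraries high in Adipoq (right); the dashed line marks equal effects. On the left most points lie below the line and near 0 in WT, and on the right most are negative in both genotypes.

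The difference between the banding effects, KO minus WT, was tested directly. With all 16 libraries it was negative for 31 of 33 genes, with a median of −0.23, and without the 3 it was negative for 24 of 33 with a median of −0.11. None of the 33 was called by edgeR in either case, as was the case for all genes (0% with all libraries and 0% without the 3), and none of the 33 had an unadjusted p under 0.05. DESeq2 and limma-voom called none of the 33, a count with no share of all genes beside it here. For Hadhb the difference was −0.34 (SE 0.30, adjusted p = 0.999) with all libraries and −0.20 (SE 0.22, adjusted p = 1.00) without the 3. A banding effect that depends on ERalpha was thus not detected for these genes with 4 libraries a group.

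Loss of ERalpha was compared within each surgery. In banded ventricles 25 of 33 genes had a negative log2 fold change of KO over WT, with a median of −0.13, and none was called (0.00743% of all genes with all 16 libraries, 0.00736% without the 3 SHAM libraries). None had an unadjusted p under 0.05. Within the steps, the genes with the smallest p were Slc27a1 at −0.40 (SE 0.25, adjusted p = 1.00), Cpt1a at −0.21 (SE 0.12, adjusted p = 1.00), Ehhadh at −0.28 (SE 0.21, adjusted p = 1.00) and Mlycd at −0.27 (SE 0.17, adjusted p = 1.00). The KO PAB and WT PAB values of each, given above, overlap. In sham ventricles 27 of 33 had a positive one, with a median of 0.12, and without the 3 libraries 15 of 33 did, with a median of −0.01. None was called in SHAM (0.00743% of all genes with all libraries, 0.00736% without the 3), and none had an unadjusted p under 0.05. The genes with the smallest p in each step were Lpl at 0.22 (SE 0.19, adjusted p = 0.996), Cpt1a at −0.14 (SE 0.12, adjusted p = 0.996), Etfa at 0.22 (SE 0.15, adjusted p = 0.996) and Acot2 at 0.27 (SE 0.25, adjusted p = 0.996). Of the 3 libraries high in Adipoq, 2 are WT and 1 is KO, so the SHAM comparison and this imbalance cannot be told apart with all 16 libraries. DESeq2 and limma-voom also called none of the 33 between KO and WT in either surgery, a count with no share of all genes beside it here.

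Since cardiomyocyte markers moved with the fatty acid genes in the 3 SHAM libraries, both were set side by side. The averaged banding effect had a median of −0.12 for the 33 genes and 0.15 for the 11 markers with all 16 libraries, and of −0.29 and −0.04 without the 3. The gap between the medians was thus similar with either set of libraries, unlike the medians themselves. Per library, the median deviation of the 33 genes minus that of the 11 markers was 0.01, −0.23, −0.22 and −0.35 in KO PAB and −0.33, −0.10, 0.00 and 0.02 in WT PAB. In SHAM it was 0.11, 0.23, 0.15 and 0.18 in KO and 0.05, 0.16, 0.14 and 0.02 in WT. The 3 SHAM libraries high in Adipoq lay among the other SHAM libraries on this scale. All 8 SHAM values were above 0, and the only banded value above the lowest of them was WT PAB 4.

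**Figure D5:**
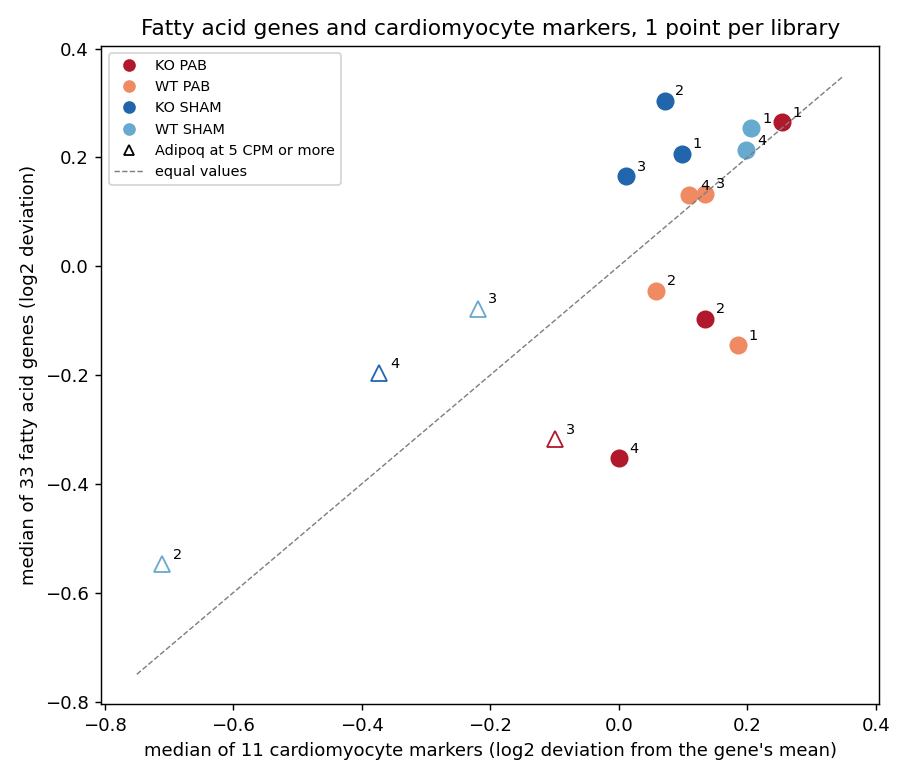
Median log2 deviation of the 33 fatty acid genes (vertical) against that of 11 cardiomyocyte markers (horizontal), 1 point per library, coloured by group and numbered by replicate; triangles are the 4 libraries with Adipoq at 5 CPM or more, and the dashed line marks equal values. All SHAM libraries lie above the line, while most banded libraries lie below it.

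The fit was therefore repeated over all 16 libraries with the mean log2 level of the 11 cardiomyocyte markers as a covariate. The planned fit over all 16 libraries had called 0 of the 33 genes, and this fit, the library-total scaling and the fit without every Adipoq-high library were added after that was seen. For banding averaged over the genotypes it called 15 of 33 genes, 45.5%, all lower in PAB, where 9.18% of all genes were called and 4.48% as lower. The median was −0.28, close to that without the 3 libraries. The median deviation of the markers was lowest in those same 3 of the 16 libraries, so this closeness is not separate support. By step the called genes were 2 of 5 in uptake (Lpl and Fabp3), 0 of 5 in the shuttle, 12 of 17 in beta-oxidation and 1 of 6 regulators (Acot2). The 12 were Acadm, Acadvl, Hadha, Hadhb, Hadh, Decr1, Eci1, Eci2, Ech1, Ehhadh, Etfb and Etfdh. The lowest adjusted p were those of Decr1 at −0.56 (SE 0.089, adjusted p = 0.00443), Hadhb at −0.51 (SE 0.085, adjusted p = 0.00596) and Hadh at −0.52 (SE 0.098, adjusted p = 0.00835). In KO 10 of 33 were called, all lower, against 5.27% of all genes. In WT none was called, a count given without the share of all genes. Leaving out 1 of the 16 libraries in turn gave 5 to 18 called genes for averaged banding (2.70% to 11.8% of all genes), with Hadhb, Decr1 and Hadh called in all 16 fits, and 0 to 16 in KO (0.206% to 8.95% of all genes), where none was called without KO SHAM 2 or without KO PAB 4. The markers can themselves change with banding, and their median effect without the covariate, given above, was positive with all 16 libraries. A covariate higher in PAB moves the effects of genes that follow it to lower values. Single markers did not all move alike. In KO, Mybpc3 had 2651 to 2959 CPM of the raw total in PAB and 2141 to 2508 CPM in SHAM. Myh6 had 10080 to 16980 CPM in KO PAB and 14520 to 19340 CPM in KO SHAM, which overlap. In this fit 1 of the 11 markers was called, as higher, but the covariate is their own mean. Their shared change is taken out before they are tested, so this count cannot show how far they change. The values are thus levels relative to these markers. With library totals in place of TMM factors and no covariate, 3 of 33 genes (Decr1, Ehhadh and Hadhb) were called as lower for averaged banding, against 3.62% of all genes. That scaling moved the median of all genes to −0.11, and that of the 33 genes to −0.18.

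Beyond the 34 genes, 84 other genes of lipid handling, mitochondrial and peroxisomal oxidation, transcriptional control and fuel choice were listed with earlier results known, and 82 were tested. With all 16 libraries 2 of the 82 were called for averaged banding, against 5.09% of all genes. Hsd17b4, the other bifunctional enzyme of the peroxisome, was higher at 0.26 (SE 0.070, adjusted p = 0.0477), and Acss3, an acyl-CoA synthetase for short chains, was lower at −0.62 (SE 0.17, adjusted p = 0.0453). Without the 3 SHAM libraries 6 of the 82 were called, all lower. In that fit 7.00% of all genes were called in either direction and 3.17% as lower, and 6 genes are few to read against these shares. These were Rxrg, a retinoid X receptor that pairs with PPARs, at −0.61 (adjusted p = 0.0159), the thioesterase Acot13 at −0.31 (adjusted p = 0.0304), and Acss3 at −0.72 (adjusted p = 0.0307). The others were Pdp1, which activates pyruvate dehydrogenase, at −0.31 (adjusted p = 0.0328), the acetyl-CoA synthetase Acss1 at −0.43 (adjusted p = 0.0353) and the branched-chain dehydrogenase Acadsb at −0.33 (adjusted p = 0.0369). Rxrg, Acot13 and Pdp1 were also called as lower in KO without the 3 libraries. The median of the 82 genes was −0.04 with all libraries and −0.08 without the 3, nearer 0 than that of the 33 genes in both.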

How the data were processed

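Right ventricle mRNA was sequenced in 16 libraries, 4 in each of 4 groups, prepared with a stranded kit per the labels' protocols. The deposited values are expected counts per gene symbol, as whole numbers. The submitters' processing notes name STAR 2.5.3a, RSEM 1.3.0 and Rnor_6.0. The annotation, the strand setting and the rounding are not given in the sources used here. Tests on these counts used edgeR 4.0.16 (R 4.3.3), with filterByExpr (min.count 10), TMM scaling, robust quasi-likelihood fit of 4 group means over all libraries, Benjamini-Hochberg adjustment over all 13458 genes at 0.05. Comparisons were banding averaged over genotypes and within each, genotype within each surgery, and the interaction. Alternatives were RLE factors, DESeq2 1.42.0, limma-voom (limma 3.58.1), 2 filters, a replicate block, 2-group fits, leaving out each library, and leaving out SHAM libraries with Adipoq at 5 CPM or more. Added after the data were seen were leaving out every library past that level, a cardiomyocyte marker covariate, library-total scaling and leaving out single libraries from 2 of these fits. CPM adjusted by TMM is shown for genes, and log2(CPM + 1) for deviations. The genes, lists and tests were chosen with earlier results of these data known. Values in every library are given for those of the 33 genes called in the edgeR fit with all libraries or without the 3 SHAM libraries and, per step, for the gene with the smallest p in averaged banding and in each genotype comparison. Other genes are given by means, effects or counts. No 2 libraries held identical values. The fit was also run on simulated data, in which genes were drawn independently with no shift shared by the genes of a library. The data here do hold such shifts, so that run cannot show how the fit handles them, and its outcome is not given.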

Additional observations from a re-analysis of the deposited data

Results flagged for a closer look

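Each of the 33 genes was looked at within each group of 4 libraries, 132 groups in all, for a value whose gap to the nearest other passed the critical value of Dixon's test. Chance flags about 1 in 20 groups, and 7 were found. Of these, 3 lie in KO SHAM 4, a library high in Adipoq: Lpl at 2116 CPM against 3198 to 3274 CPM in the other 3 KO SHAM libraries, Echs1 at 385 CPM against 580 to 582 CPM, and Etfb at 161 CPM against 231 to 242 CPM. Ehhadh stood high in KO PAB 1, at 12.5 CPM against 8.86 to 9.45 CPM. Ucp3 stood high in WT PAB 4, at 25.8 CPM against 17.4 to 18.3 CPM. Etfa stood low in WT PAB 2, at 411 CPM against 455 to 464 CPM. Ppard stood high in KO SHAM 1, at 41.0 CPM against 32.0 to 33.4 CPM. No gene had banding effects that differed between the genotypes by the test of the difference.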

How the results depend on the processing

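None of the 33 genes was called with all 16 libraries, and this count of 0 was kept in WT, in both genotype comparisons and in the interaction under every alternative run. For averaged banding it was 1 under DESeq2, 3 without the Adipoq-high SHAM libraries, 2 without every library with Adipoq at 5 or more, 15 with the cardiomyocyte markers as covariate and 3 when scaled by library totals. Leaving out 1 library at a time gave 0 to 1, the 1 being Ehhadh without WT PAB 3, with no share of all genes given for these fits. In KO it was 1 without the Adipoq-high SHAM libraries and 10 with the covariate. Leaving out 1 further library gave 0 to 18 called genes for averaged banding and 0 to 17 in KO without the Adipoq-high SHAM libraries, and 5 to 18 and 0 to 16 with the covariate, fits also added after the data were seen. The medians of the 33 genes in those fits ran over −0.35 to −0.25 and −0.50 to −0.24, and with the covariate over −0.32 to −0.24 and −0.38 to −0.25. In the other alternatives medians moved by less than the SD between replicates (0.27). There the averaged banding median ran over −0.29 to −0.05, that in WT over −0.22 to 0.12 and so on both sides of 0, and that of genotype in SHAM over −0.01 to 0.23. No gene described in full changed direction in the comparison it was picked for. The replicate numbers did not pair the libraries (3 of 16 correlated best with their own number). With the replicate block the median for averaged banding was −0.12 and 0 genes were called. The count of all genes called for averaged banding was 685 in the main analysis, 1337 under DESeq2, 496 with the replicate block and 1235 with the covariate.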
